A study of Mus musculus with 8 samples.

Results

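The 49 genes described here carry cells through G2, mitosis and cytokinesis. They were taken as a named list that was chosen with earlier results of these data known. Matched from Ensembl gene identifiers to symbols, all 49 were found among the 45706 genes of the RNA tables. All 49 also passed the filter on low counts, which left 16258 genes for testing. By function the members fell into 8 groups, from the CDK1 switch that starts mitosis to the midzone and cytokinesis proteins that end it.

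The study profiled mouse bone marrow LSK cells, which are lineage-negative cells positive for Sca1 and Kit and hold the blood stem cells and early progenitors. Cells came from C57BL/6 mice of 2 labelled genotypes, WT and Hira conditional KO, and Hira encodes a histone chaperone. Each genotype had 2 RNA-seq libraries and 2 ATAC-seq libraries, the latter an assay of open chromatin by transposase insertion. The Cre driver, the age of the mice and the number of mice behind a library are not stated in the labels. The p-values therefore measure the spread between these libraries, and how much of it is technical is unknown.

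Hira itself, the gene that checks the labels, was measured in CPM, a count scaled to the size of its library, at 16.5 and 17.2 in the libraries labelled WT and at 24.4 and 23.3 in those labelled Hira KO. Both values were thus higher where the labels name the knockout, at a log2 fold change of 0.50 ± 0.19 (SE, 2 libraries a group; edgeR adjusted p = 0.180). In TPM, which also corrects for gene length, Hira was at 16.77 and 11.05 in labelled WT against 16.90 and 16.85 in labelled Hira KO. On that scale labelled WT replicate 1 was nearly level with both labelled Hira KO libraries. No exon-level value was used, so the part of the gene that the reads cover is unknown. The names under which the data of all 8 libraries were deposited also carry the genotype opposite to the sample titles. Groups are therefore written as labelled throughout, and every direction below turns around if the labels are exchanged.

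RNA libraries held 16595393 to 19846328 expected counts, of which mitochondrial genes took 40.8% and 51.7% in the labelled WT pair and 42.9% and 53.1% in the labelled Hira KO pair. Labelled WT replicate 2 stood apart in Xist, with a male-like level of 1470 counts against 169234 to 232764 in the other libraries. The labelled WT pair may thus differ in sex, and the part of sex in the results was not tested. The gate markers were present in all 4 libraries: Kit ranged from 274 to 351 CPM, and Ly6a, which encodes Sca1, was at 10.3 and 8.86 CPM in labelled WT against 23.1 and 33.6 CPM in labelled Hira KO. Of 5 gate markers 1 was called higher in labelled Hira KO and 0 lower, against 214 and 78 of all 16258 tested genes.

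Entry into mitosis is driven by CDK1 bound to cyclin A or B, and exit from it by the anaphase-promoting complex, which marks cyclins and securin for destruction. In between, the spindle assembly checkpoint holds anaphase back until the kinetochores have attached every chromosome to the spindle. Many of these genes share a promoter arrangement: the cell cycle genes homology region (CHR), bound by the MuvB core of the DREAM and B-Myb complexes, often lies near the start with CCAAT boxes, the sites of the factor NF-Y, upstream of it. In the marrow, most stem cells are out of cycle and progenitors divide often.

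Start windows show how common that arrangement is among the members. RefSeq sequence from 250 bases before to 50 after the annotated start (GRCm38.p6) was at hand for 40 members, and the other 9 were Aurkb, Cdc25c, Ccna2, Foxm1, Incenp, Kif20a, Tpx2, Dlgap5 and Smc4. The stretches below run from 100 bases before the start, which is base 101 of each. They show the called gene Bub1b, members of several functions with a CHR, Cenpa as the member with the smallest change, and Birc5 as a member without a match. Capitals mark the CHR (TTTGAA, or TTCAAA on the other strand) and the CCAAT box (CCAAT, or ATTGG on the other strand).
Bub1b: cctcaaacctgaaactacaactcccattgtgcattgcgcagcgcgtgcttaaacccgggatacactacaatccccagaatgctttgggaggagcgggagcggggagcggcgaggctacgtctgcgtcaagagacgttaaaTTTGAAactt
Plk1: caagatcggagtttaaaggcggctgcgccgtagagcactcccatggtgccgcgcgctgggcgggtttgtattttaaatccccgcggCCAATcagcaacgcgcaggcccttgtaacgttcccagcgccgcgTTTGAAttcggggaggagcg
Cdca8: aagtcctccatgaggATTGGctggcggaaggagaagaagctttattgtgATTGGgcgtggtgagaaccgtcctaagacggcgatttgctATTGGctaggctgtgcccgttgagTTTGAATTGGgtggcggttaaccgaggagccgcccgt
Espl1: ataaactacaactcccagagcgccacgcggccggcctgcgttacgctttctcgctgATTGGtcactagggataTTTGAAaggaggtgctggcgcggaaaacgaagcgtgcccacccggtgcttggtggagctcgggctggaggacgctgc
Aurka: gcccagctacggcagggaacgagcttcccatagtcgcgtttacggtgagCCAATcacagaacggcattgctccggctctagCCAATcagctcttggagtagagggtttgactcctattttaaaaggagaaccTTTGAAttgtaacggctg
Ccnb2: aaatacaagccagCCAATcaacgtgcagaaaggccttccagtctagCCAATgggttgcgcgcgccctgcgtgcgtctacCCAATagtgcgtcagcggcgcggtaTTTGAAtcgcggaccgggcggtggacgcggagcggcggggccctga
Cdk1: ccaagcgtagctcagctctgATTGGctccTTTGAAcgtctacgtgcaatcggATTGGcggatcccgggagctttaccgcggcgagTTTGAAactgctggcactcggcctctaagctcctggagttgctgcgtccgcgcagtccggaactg
Cenpa: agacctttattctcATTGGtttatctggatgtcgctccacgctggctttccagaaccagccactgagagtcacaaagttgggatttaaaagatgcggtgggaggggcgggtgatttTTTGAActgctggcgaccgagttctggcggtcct
Birc5: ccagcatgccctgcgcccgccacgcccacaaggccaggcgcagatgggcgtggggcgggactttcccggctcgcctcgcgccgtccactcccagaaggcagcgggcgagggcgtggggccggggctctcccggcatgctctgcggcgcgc

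Positions on GRCm38.p6 were Bub1b at chr2:118598111-118598260 (plus strand), Plk1 at chr7:122159335-122159484 (plus strand), Cdca8 at chr4:124936868-124937017 (minus strand), Espl1 at chr15:102296193-102296342 (plus strand), Aurka at chr2:172370521-172370670 (minus strand), Ccnb2 at chr9:70421505-70421654 (minus strand), Cdk1 at chr10:69352863-69353012 (minus strand), Cenpa at chr5:30666786-30666935 (plus strand) and Birc5 at chr11:117849137-117849286 (plus strand). Counted from the start base as position 0, the CHR began at position 40 in Bub1b, 30 in Plk1, 13 in Cdca8, -27 in Espl1, 32 in Aurka, 4 in Ccnb2 and 16 in Cenpa. Cdk1 held a pair of them, at -71 and -15, and Ccnb2 had another at -167, outside the stretch shown. In Cdca8 the last letter of the CHR is also the first of an inverted CCAAT box. Ccnb2 carried 3 CCAAT boxes in a row, beginning at -87, -54 and -21.

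The CHR letters occurred on either strand in 32 of 40 member windows (80.0%), against 15.1% of the 10802 tested genes with a window and 20.2% of all 27025 windows. With the match centred within 60 bases of the start, the count was 28 of 40 (70%) against 4.49% of tested genes. All 6 midzone and cytokinesis genes and all 4 genes of the anaphase-promoting complex group with a window had such a match. A CCAAT box was in 31 windows (77.5%), against 42.7% of tested genes, and 28 windows held both. The E2F site searched (GGCGGGAA) was in 0 of 40 windows, against 4.60% of tested genes. Mad2l1, Birc5, Nusap1, Melk and Nuf2 matched none of the 3 motifs. These are matches of letters in a fixed window, and none was tested for binding.

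**Figure D1:**
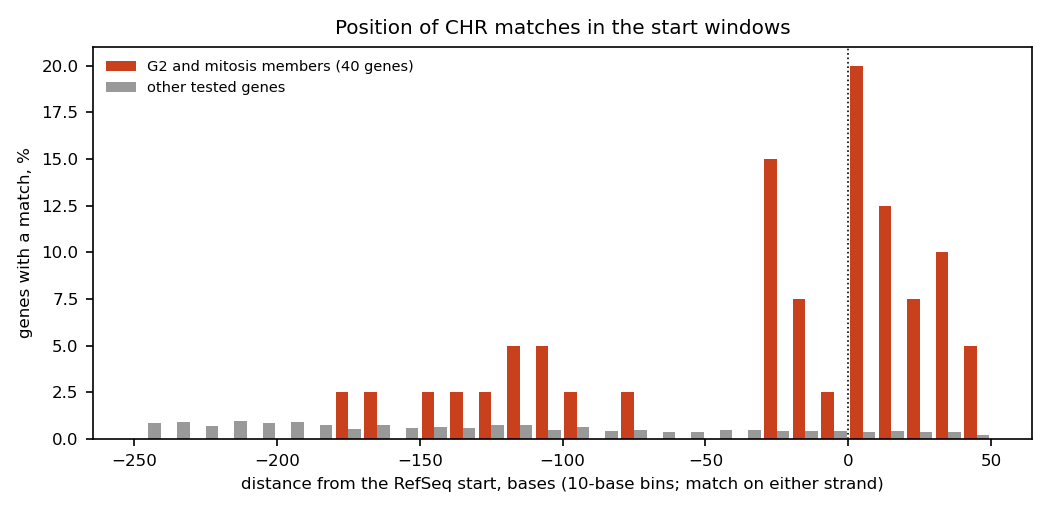
Share of genes with a CHR match (vertical axis, percent) in each 10-base bin of distance from the RefSeq start (horizontal axis, bases), for 40 members (red) and the other tested genes (grey). The red bars stand mostly between 30 bases before and 50 bases after the start, and 28 of 40 members had a match centred within 60 bases.

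All 49 members had lower fitted levels in the libraries labelled Hira KO than in those labelled WT, and 3 of them passed the test over all genes: the passenger complex genes Incenp and Aurkb and the checkpoint gene Bub1b. Their share, 3 of 49, stands beside 0.48% of all tested genes called lower, and 0 members were called higher. As the list was chosen with earlier results of these data known, the shares in this paragraph describe the members and test nothing. The median log2 fold change of the members was -0.67, from -1.14 for Cdca8 to -0.20 for Cenpa, while the median of all tested genes was 0.01. Without a correction for the number of genes, 39 of 49 were lower at p below 0.05 (79.6%), against 10.6% of all tested genes. In 46 of 49 both labelled Hira KO libraries lay below both labelled WT libraries (93.9%), against 27.8% of all tested genes. Cdc25c, Cenpa and Nusap1 were the exceptions. The share of all genes, 27.8%, also stands beside the counts without overlap given for each function below. The number of calls rested on the tool. DESeq2 called 21 members lower, against 3.54% of all genes. On log2(TPM + 1) limma called 1, against 1.54% of all genes, and on log2(TPM + 0.1) it called 0. The 1 gene was Cdca3, and Incenp, Aurkb and Bub1b had adjusted p of 0.240, 0.105 and 0.152 by limma on log2(TPM + 1). In bulk RNA, fewer cells in division and less of these transcripts per cell cannot be told apart.

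**Figure D2:**
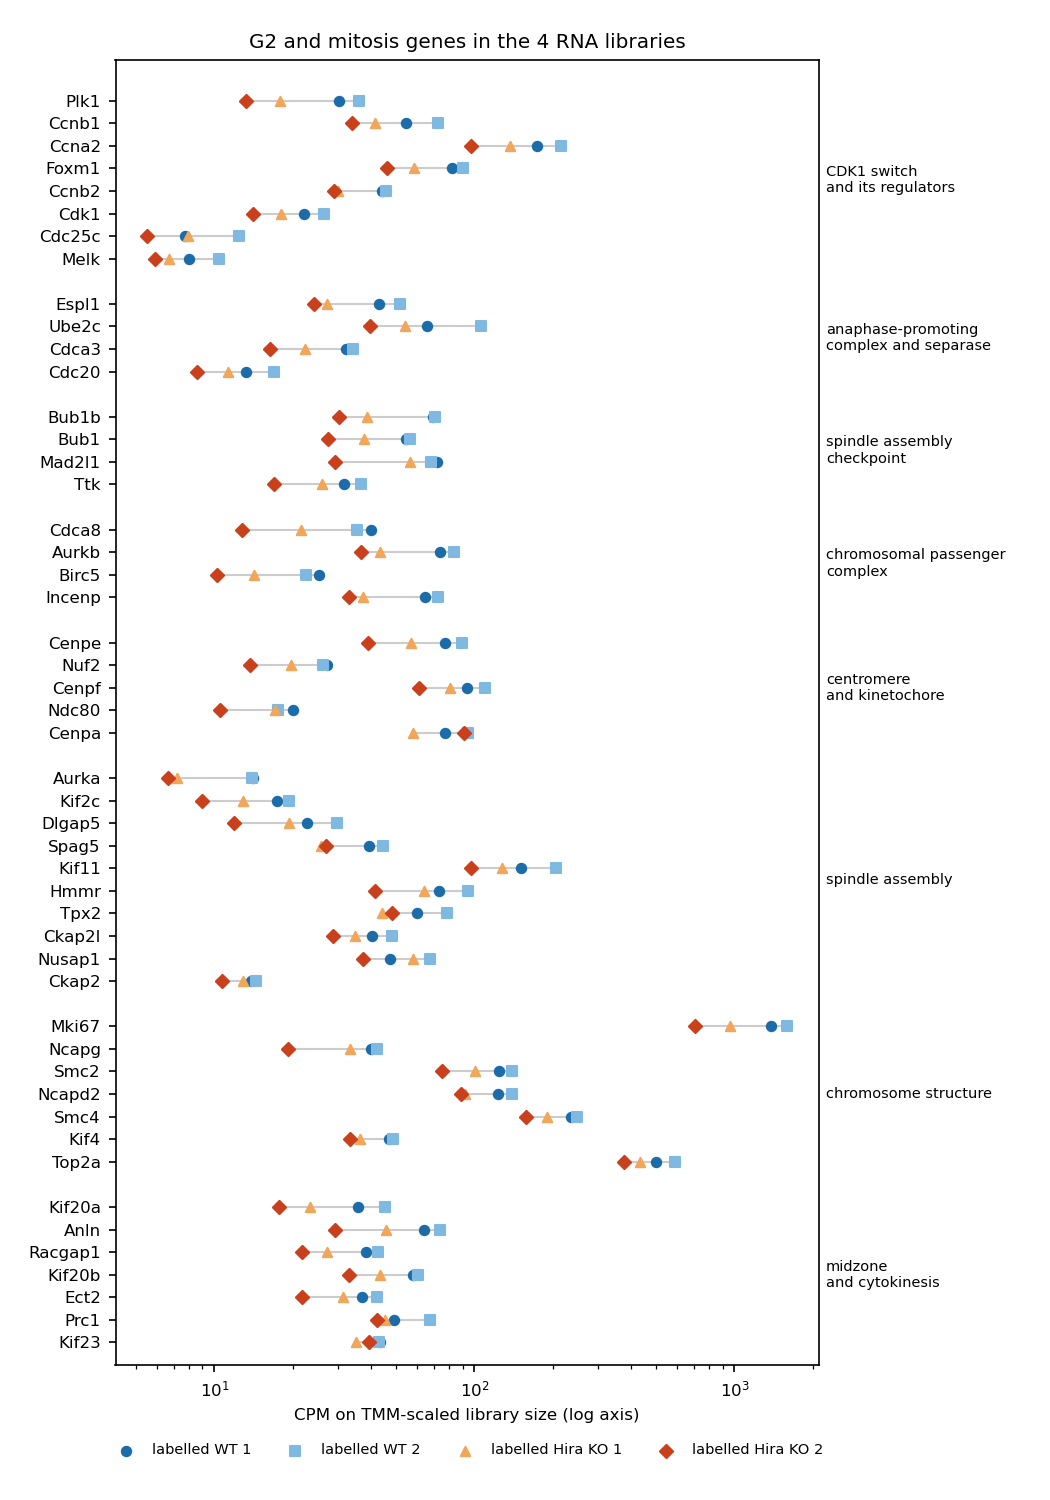
CPM of each of the 49 members (horizontal log axis) in the 4 RNA libraries, 1 point per library, grouped by function. Blue points (labelled WT) lie right of the orange and red points (labelled Hira KO) for 46 of 49 genes.

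The libraries of a group were not alike. Summed over the 49 members, CPM came to 4557 and 5296 in labelled WT against 3442 and 2720 in the other pair. Labelled Hira KO replicate 2 was below replicate 1 for 45 of 49 members, by a median log2 difference of -0.40, and labelled WT replicate 2 was above replicate 1 for all but 7, by 0.20. Between the nearest pair, labelled Hira KO replicate 1 against labelled WT replicate 1, the median was -0.40, as large as that within the labelled Hira KO pair, and 47 of 49 members were lower. Between the farthest pair, replicate 2 of each, it was -1.05 with all 49 lower. Left without labelled Hira KO replicate 2, the members had a median of -0.51, and without replicate 1 of that group -0.93. Without labelled WT replicate 2, the library that stood apart in Xist, the median was -0.56, and without labelled WT replicate 1 it was -0.78. Such fits leave 1 library in a group, so its spread is not measured and their calls are not given.

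The chromosomal passenger complex puts Aurora B kinase on centromeres and later on the midzone, and its 4 members had the lowest median of any group, -0.97. Incenp (ENSMUSG00000024660), the scaffold, was at 64.6 and 72.4 CPM in labelled WT against 37.2 and 33.0 CPM in labelled Hira KO. Its log2 fold change was -0.96 ± 0.16 (SE; edgeR adjusted p = 0.0427), with no overlap between groups. Aurkb (ENSMUSG00000020897), the kinase itself, measured 73.6 and 83.4 CPM against 43.4 and 36.7 CPM, a log2 fold change of -0.97 ± 0.17 (adjusted p = 0.0427). The other 2 members fell short of the threshold although their point estimates were as low. Birc5 (survivin) gave 25.3 and 22.4 CPM in labelled WT against 14.1 and 10.2 CPM in labelled Hira KO (log2 fold change -0.97, adjusted p = 0.0765). For Cdca8 (borealin) the values were 40.2 and 35.5 CPM against 21.5 and 12.8 CPM, the lowest fold change of all members at -1.14 ± 0.27 (adjusted p = 0.0723). On GRCm38.p6 Incenp spans chr19:9872295-9899489, Aurkb chr11:69045624-69051664 and Cdca8 chr4:124918465-124936917.

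Checkpoint kinases and their partners watch for kinetochores without microtubules. Bub1b (BubR1, ENSMUSG00000040084, chr2:118598202-118641592), part of the inhibitor of the anaphase-promoting complex, was at 69.4 and 70.5 CPM in labelled WT against 38.7 and 30.1 CPM in labelled Hira KO. The labelled WT values lay close together, and the difference between groups was -1.02 ± 0.18 on the log2 scale (adjusted p = 0.0444). Bub1, the kinase that recruits it to kinetochores, measured 54.7 and 56.5 CPM against 37.8 and 27.3 CPM (log2 fold change -0.77, adjusted p = 0.0863). Ttk, the kinase that starts the signal, gave 31.4 and 36.6 CPM against 26.0 and 16.9 CPM (-0.66, adjusted p = 0.168). Mad2l1, the checkpoint's messenger, was at 71.8 and 68.0 CPM in labelled WT against 56.6 and 29.0 CPM in labelled Hira KO. The labelled Hira KO libraries were far apart, and the interval ran from -1.44 to 0.03. The median of the 4 genes was -0.74, and none overlapped between groups.

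Cdc20, Ube2c and Espl1 act at the step from metaphase to anaphase, and Cdca3, placed with them, is itself a target of the anaphase-promoting complex. None of the 4 passed the test, although the groups did not overlap for any of them (median -0.83). Espl1, the separase that cuts cohesin, was nearest to the threshold. Its levels were 43.0 and 51.5 CPM in labelled WT against 27.2 and 24.2 CPM in labelled Hira KO (log2 fold change -0.88 ± 0.18, adjusted p = 0.0589). Ube2c, the ubiquitin-conjugating enzyme of the complex, had the widest labelled WT pair of these, 65.9 and 106 CPM, above 54.0 and 39.5 CPM (adjusted p = 0.125). Cdca3 gave 32.2 and 34.1 CPM against 22.3 and 16.4 CPM (-0.77, adjusted p = 0.0956). Cdc20, the activator that the checkpoint blocks, showed 13.2 and 16.9 CPM against 11.2 and 8.59 CPM (-0.60, adjusted p = 0.230).

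The CDK1 group had a median of -0.66 over 8 genes, with 0 calls and 7 genes without overlap. Plk1, the polo kinase that helps to activate CDK1, had the largest difference in it: 30.1 and 35.8 CPM in labelled WT against 17.9 and 13.2 CPM in labelled Hira KO (-1.08 ± 0.22, adjusted p = 0.0585). Foxm1, a transcription factor that binds with B-Myb at genes of this kind, was at 81.7 and 90.4 CPM against 58.5 and 46.2 CPM (-0.72, adjusted p = 0.0755). The cyclins lay close together. Ccnb1 measured 54.5 and 72.5 CPM against 41.3 and 33.8 CPM (-0.76, adjusted p = 0.0924). Ccna2, the member of this group with the highest level per length, measured 174 and 215 CPM against 137 and 96.8 CPM (-0.74, adjusted p = 0.0987). Ccnb2 and Cdk1 followed at -0.61 and -0.59. Cdc25c, the phosphatase that frees CDK1, and the kinase gene Melk were the scarcest of the group at 5.53 to 12.4 CPM and 5.89 to 10.4 CPM, and their intervals included 0.

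The 5 kinetochore members had a median of -0.53, 0 calls and 4 genes without overlap. Cenpe, the kinesin that moves chromosomes to the spindle equator, was at 76.8 and 89.6 CPM in labelled WT against 56.9 and 39.1 CPM in labelled Hira KO (-0.79, adjusted p = 0.0919). Nuf2, a part of the NDC80 complex that grips microtubules, gave 27.0 and 26.1 CPM against 19.7 and 13.7 CPM (-0.67, adjusted p = 0.150). Its partner Ndc80 was at -0.44 with an interval that included 0. Cenpf, a large outer kinetochore protein, measured 93.9 and 110 CPM against 80.3 and 61.1 CPM (-0.53, adjusted p = 0.150). Cenpa, the histone variant that marks the centromere, was the exception. It was at 77.1 and 94.3 CPM in labelled WT against 58.0 and 91.4 CPM in labelled Hira KO, so that the groups overlapped and replicate 2 of labelled Hira KO was the higher one (-0.20 ± 0.24, adjusted p = 0.667). Fitted without labelled Hira KO replicate 1, it was at 0.07.

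Spindle assembly was the largest group, 10 genes with a median of -0.67, 0 calls and 9 without overlap. Aurka, the Aurora kinase of the spindle poles, had close replicates in both groups: 14.1 and 14.0 CPM in labelled WT against 7.15 and 6.61 CPM in labelled Hira KO (-1.03 ± 0.25, adjusted p = 0.0739). Its activator Tpx2 gave 60.1 and 78.6 CPM against 44.0 and 48.3 CPM (-0.59, adjusted p = 0.124). Spag5, a spindle-associated protein, was at 39.3 and 44.6 CPM against 25.6 and 27.0 CPM (-0.67, adjusted p = 0.0863). These 2 genes, with Cenpa and Kif23, were the only 4 members that were not lower in labelled Hira KO replicate 2 than in replicate 1. Kif11, the motor that pushes spindle poles apart, measured 151 and 207 CPM against 128 and 96.6 CPM (-0.67, adjusted p = 0.125). Hmmr, Dlgap5, Kif2c and Ckap2l had log2 fold changes from -0.75 to -0.49. The microtubule-binding genes Nusap1 (47.5 and 67.7 CPM against 57.8 and 37.2 CPM) and Ckap2 were at -0.28 and -0.26, with intervals that included 0, and without labelled Hira KO replicate 2 the value for Nusap1 was 0.00.

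The genes of chromosome structure included the most abundant members, and all 7 were lower without overlap at a median of -0.54, with 0 calls. Mki67, the proliferation marker that coats mitotic chromosomes, had the highest CPM: 1382 and 1593 in labelled WT against 961 and 703 in labelled Hira KO (-0.84 ± 0.21, adjusted p = 0.0816). Top2a, the topoisomerase that untangles sister chromatids, measured 499 and 591 CPM against 432 and 377 CPM. At -0.43 ± 0.16 (adjusted p = 0.180) its change was the smallest of this group. The condensin genes lay between. Ncapd2 gave 124 and 139 CPM against 92.3 and 88.7 CPM (-0.54, adjusted p = 0.0942), and Smc2 gave 124 and 140 CPM against 100.1 and 75.0 CPM (-0.59, adjusted p = 0.119). Ncapg, Smc4 and the chromokinesin gene Kif4 were at -0.65, -0.47 and -0.46.

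Midzone and cytokinesis genes were also lower without overlap in all 7 cases, at a median of -0.64 with 0 calls. Kif20a, a kinesin that carries the passenger complex to the midzone, was at 35.5 and 45.1 CPM in labelled WT against 23.4 and 17.7 CPM in labelled Hira KO (-0.97 ± 0.22, adjusted p = 0.0682). Anln, the scaffold of the contractile ring, measured 63.7 and 73.6 CPM against 45.6 and 29.0 CPM (-0.88, adjusted p = 0.0934). Racgap1, a subunit of centralspindlin, gave 38.4 and 42.7 CPM against 27.0 and 21.6 CPM (-0.74, adjusted p = 0.0873). Its partner Kif23 differed less, with 43.5 and 42.8 CPM against 35.1 and 39.2 CPM (-0.22, adjusted p = 0.473). Prc1, which bundles midzone microtubules, was at 49.1 and 67.4 CPM against 45.4 and 42.3 CPM (-0.41, adjusted p = 0.261). Ect2 and Kif20b were at -0.59 and -0.64.

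**Figure D3:**
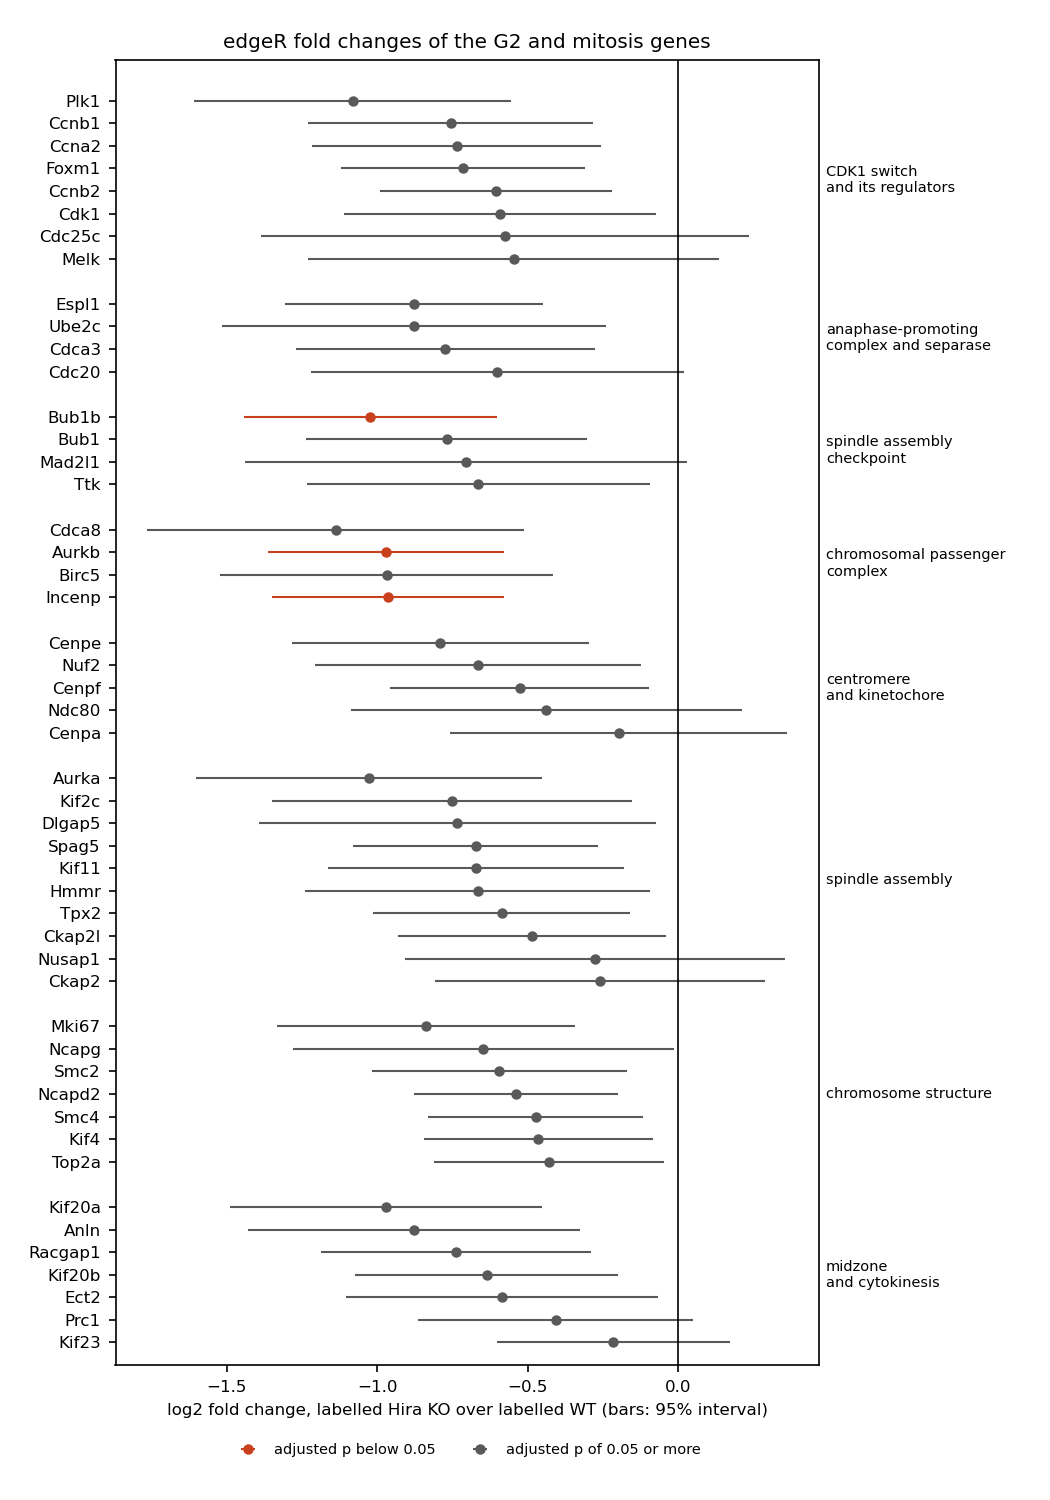
Fitted log2 fold change of each member, labelled Hira KO over labelled WT (horizontal axis), with its 95% interval as a bar and the genes grouped by function. All 49 points lie left of 0, 39 intervals exclude 0, and the 3 genes in red (Incenp, Aurkb, Bub1b) have adjusted p below 0.05.

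Levels per length set the scale of these differences. In TPM, a share of transcripts corrected for gene length and averaged over the 4 libraries, the members had a median of 18.8 against 5.75 for all tested genes. Melk was lowest at 3.54 TPM and Top2a highest at 223 TPM, followed by Mki67 at 134 TPM, Smc4 at 128 TPM and Ube2c at 99.4 TPM. TPM counts the mitochondrial share, which was larger in replicate 2 of each group. On TPM 37 of 49 members, not 46, were lower without overlap, against 19.5% of all tested genes on that scale. Among the exceptions on this scale was Top2a, at 272 and 229 TPM in labelled WT against 238 and 151 TPM in labelled Hira KO.

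Some members share bases with another gene, and the labels do not say whether counting used strand. On the RefSeq annotation 9 members overlap a protein-coding gene: Ccna2, Foxm1, Cdc20, Aurka, Nusap1, Ncapg, Anln, Prc1 and Kif20a. Prc1 shares 21669 bases with Rccd1 and Kif20a shares 4930 with Cdc23, so the values of these members are uncertain to that extent. The deposited posterior SD of the count is a measure of reads that fit more than 1 gene or isoform. Among members it exceeded 1% of the count only for Birc5, Dlgap5, Ncapg and Kif20a, where it reached 1.85%. For Hira it reached 3.15%.

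Other genes of cell division were read in the same fit. Among 38 other kinetochore genes, 26 other spindle and centrosome genes and 23 other genes of G2 and mitosis, the median log2 fold changes were -0.57, -0.55 and -0.55. Of these Kif18b, a plus-end kinesin, was the 1 gene called: it measured 51.4 and 57.7 CPM in labelled WT against 29.9 and 25.8 CPM in labelled Hira KO (-0.97, adjusted p = 0.0475). The CDK partner Cks2 just missed the threshold, with 46.8 and 45.3 CPM against 25.0 and 24.8 CPM (adjusted p = 0.0502). Groups did not overlap, with labelled Hira KO lower, for 31 of 38, 19 of 26 and 20 of 23 genes. These are 81.6%, 73.1% and 87.0%, against 27.8% of all tested genes.

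Another 4 lists sat nearer to 0. The median was -0.12 for 15 subunits of the anaphase-promoting complex, -0.16 for 13 cohesin genes and -0.21 for 18 checkpoint kinases and phosphatases, with 0 calls in any of them. Lower values without overlap were found for 6, 6 and 4 of these genes. The 12 genes of MuvB, DREAM and B-Myb had a median of -0.22 and differed among themselves. E2f4, which encodes the E2F of the DREAM complex, was called lower, at 75.4 and 79.3 CPM against 45.5 and 40.4 CPM (-0.85, adjusted p = 0.0486). Mybl2, which encodes B-Myb, was at 62.9 and 48.4 CPM against 30.1 and 19.1 CPM (-1.18, adjusted p = 0.0653), and Rbl2, which encodes the p130 pocket protein, was at 70.7 and 78.6 CPM against 87.5 and 99.1 CPM (0.32, adjusted p = 0.258).

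Replication genes stood close to the members. The 48 genes of S phase had a median of -0.52 with 0 calls, and 41 were lower without overlap (85.4%, against 27.8% of all tested genes). Uhrf1, which keeps DNA methylation through replication, gave 190 and 185 CPM in labelled WT against 115 and 86.7 CPM in labelled Hira KO (-0.89, adjusted p = 0.0528). Rrm2, a subunit of ribonucleotide reductase, had the largest change of the list, with 72.7 and 68.3 CPM against 34.1 and 19.1 CPM (-1.40, adjusted p = 0.0563). The difference in median between these and the mitotic members was not tested.

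**Figure D4:**
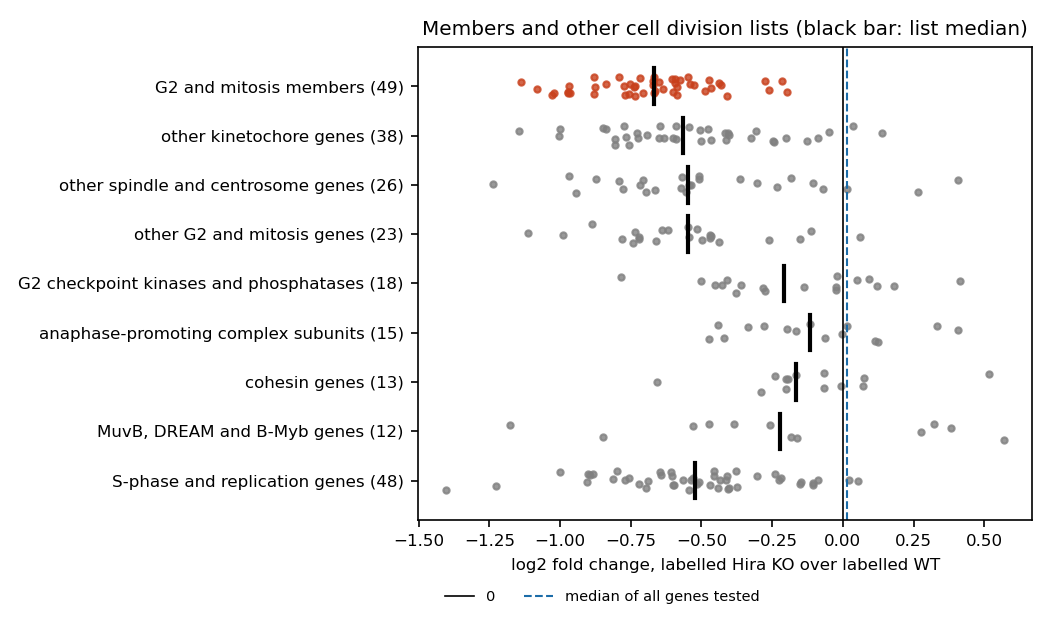
Log2 fold change of each gene (points; horizontal axis, labelled Hira KO over labelled WT) in the 49 members and 8 other cell division lists, with the list median as a black bar and the number of genes in parentheses. The members (median -0.67), mitotic and S-phase lists lie left of the dashed line at the median of all tested genes (0.01), and the lists of anaphase-promoting complex and cohesin genes lie nearer to it.

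Markers of cell types, within the LSK population and outside it, also differed between the groups, and their part in the result was not tested. Among all 16258 tested genes, 214 were called higher in labelled Hira KO and 78 lower. Of 11 stem cell markers, Hlf and Meis1 were called higher in labelled Hira KO and 0 lower, and the summed level of the 11 was 233 and 281 CPM in labelled WT against 641 and 816 CPM in labelled Hira KO. Of 7 multipotent progenitor markers, Flt3 and Cd27 were called higher (sums of 637 and 652 CPM against 985 and 1102 CPM). Another 2 of the 7 had log2 fold changes below 0, the lowest at -0.21. Granulocyte and monocyte markers went the other way in 9 of the 10 tested, against 49.1% of all tested genes below 0. Ly6c2 was called lower, and the sums were 4187 and 2647 CPM against 1669 and 873 CPM. The 11 erythroid markers had 0 calls and sums of 706 and 949 CPM against 452 and 122 CPM. Log2 fold changes were below 0 for 7 of the 11, and they ran from -2.42 to 1.57. Of 12 B and plasma cell markers, Igkc, Jchain and Ighm were called higher and 0 lower (sums of 790 and 715 CPM against 4668 and 2605 CPM). The list was mixed, at a median log2 fold change of 0.22. Without overlap, 6 of the 12 were higher and 5 were lower, against 4602 and 4516 of all 16258 tested genes. Of 7 tested T and NK cell markers Cd4 was called higher (sums of 87.2 and 79.7 CPM against 86.2 and 42.6 CPM). Of 7 tested stromal and endothelial markers Cdh5 was called lower (91.4 and 83.3 CPM against 89.8 and 99.1 CPM). In each of these 2 lists 5 of 7 log2 fold changes were below 0, against 49.1% of all tested genes. The 6 mast cell and basophil markers had 0 calls (141 and 111 CPM against 90.3 and 89.4 CPM). No tested marker was at 0 in all 4 libraries, and Cebpe, Cd3g, Col1a1 and Col3a1 did not pass the filter.

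Chromatin at the members was open in every library. Peaks were called library by library, and joined wherever they overlapped, they gave 112479 regions, of which 45779 were in all 4 lists. A region found in all 4 lay within 10 kb of the gene body for 49 of 49 members, against 90.6% of the 14048 tested genes placed on the annotation. At the start itself, 39 of 40 members had a region called in all 4 libraries (97.5%), against 81.0% of 10801 genes. The exception was Kif2c, with no region in any list at the RefSeq start used, chr4:117178772 on the minus strand. That start lies inside the gene body, chr4:117159633-117182624. The upper end of the body, its 5' end, was covered by a region called in all 4 lists (chr4:117181988-117183076). Its fold enrichment ranged from 24.0 to 32.3, so the exception concerns the internal start only.

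Peaks at the starts were among the strongest of each list. Over 41 annotated starts with a region (Ect2 and Prc1 have a pair each), the authors' fold enrichment over background had medians of 81.4 and 63.3 in the labelled WT lists and 80.0 and 64.5 in the labelled Hira KO lists, which are 95.9, 95.4, 97.1 and 95.8 as percentiles within each list. The order of the enrichment medians followed the replicate number, not the labelled genotype. At Bub1b the start region (chr2:118597649-118598631) had values of 53.9 and 63.3 in labelled WT against 57.3 and 66.2 in labelled Hira KO. Regions over 1 end of Incenp (chr19:9898716-9900105) and of Aurkb (chr11:69045334-69046197) gave 52.7 and 52.5 against 68.3 and 63.5, and 33.9 and 28.6 against 36.4 and 28.8. So none of the 3 genes called lower in RNA had a lower value at this region in both labelled Hira KO lists than in both labelled WT lists. The lists hold no read counts, and no test was made between them.

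Regions called in 1 labelled pair and in neither library of the other lay near 19 members (38.8%), against 35.4% of all tested genes. The directions were unequal, and the difference between members and other genes was not tested. For 16 members (32.7%) there was a region found only in the labelled WT pair, against 17.0% of genes, and for 4 (8.16%) a region of the labelled Hira KO pair alone, against 22.5%. In all there were 34 regions of the first kind, with 6 near Mki67, 5 near Aurka and 4 near Ccnb1, and 4 of the second kind, near Foxm1, Bub1b, Kif11 and Ncapg. Regions near 1 gene are not independent of each other. Within 2 kb the counts were 10 and 0 members (20.4% and 0%), against 12.1% and 16.7% of genes. Within 50 kb they were 23 and 22 members (46.9% and 44.9%), against 30.4% and 43.0% of genes.

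Of these 38 regions, 5 were above the list median of fold enrichment in both of their lists. The strongest lay below the Mki67 gene body at chr7:135688219-135688911, with fold enrichment of 12.7 and 26.9 in the labelled WT lists. Next came a region inside Ncapd2 at chr6:125170098-125170651 (10.01 and 11.8) and another inside Ccnb1 at chr13:100779332-100780462 (7.12 and 8.53). On the labelled Hira KO side the strongest was above the Ncapg gene body at chr5:45709669-45709984 (4.90 and 6.18). At the Ccnb1 start, by contrast, the region in all 4 lists stood at 95.1, 59.7, 87.9 and 55.3. The labelled Hira KO lists were the longer ones by replicate, with 92839 and 73715 peaks against 79565 and 63422.

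**Figure D5:**
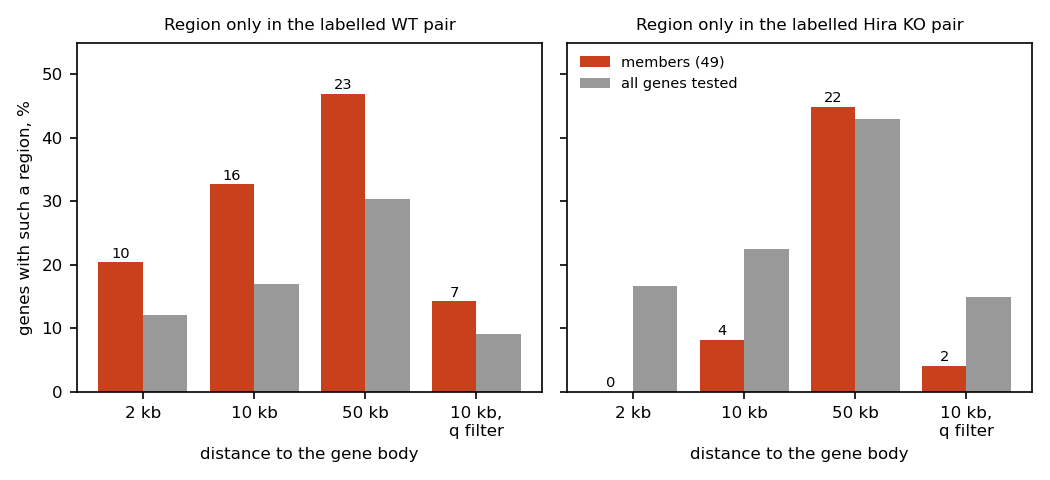
Share of genes (vertical axis, percent) with a region called only in the labelled WT pair (left) or only in the labelled Hira KO pair (right), within 2, 10 or 50 kb of the gene body or with a stricter q filter, for the 49 members (red, number above the bar) and all tested genes (grey). Within 10 kb the red bar is 16 genes on the left and 4 on the right.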

How the data were processed

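RNA and chromatin data came from LSK cells of labelled WT and labelled Hira KO mice, 2 libraries of each kind per genotype. Per the labels' protocols, RNA was amplified with an Ovation kit before tagmentation. RNA tables deposited by the authors hold RSEM expected counts per Ensembl gene, TPM and a posterior SD as a score of ambiguity. Each ATAC list deposited by the authors is a per-library peak file with a fold enrichment and -log10 p and q values. The submitters' processing notes name, without roles, RSEM 1.3.0, STAR 2.5.3a, MACS2 2.1.1, HTSeq, DESeq2, Bowtie2 2.2.9, Trim Galore 0.4.5, bedtools and the build GRCm38. Whether counting used strand is not stated there.

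Expected counts were rounded and fitted with edgeR 4.0.16 (R 4.3.3; TMM, filterByExpr, quasi-likelihood F test), genotype as the only term, with Benjamini-Hochberg adjustment over 16258 genes and a threshold of 0.05. CPM is on TMM-scaled library sizes. Symbols matched 45143 of 45706 identifiers. Peaks of 1 interval were counted once, mitochondrial peaks were left out, and lists were merged at an overlap of at least 1 bp and set beside RefSeq gene bodies (GRCm38.p6). Members, roles and lists were chosen with earlier results of these data known. Named members are those called, up to 3 per role by p and the highest TPM per role; of other lists, called genes or up to 2 by p, while Birc5, Cdc20, Kif23, Nusap1 and Rbl2 were given by library after their values were seen. One stem cell marker is not reported here and was left out of its list. Calculations were checked on simulated data. Depths of 16595393 to 19846328 counts and 2 libraries a group limit precision, and the common biological coefficient of variation was 27.8%. Alternatives were DESeq2 1.42.0, other size factors, filters, limma 3.58.1 on log2(TPM + 1) or log2(TPM + 0.1), a replicate block, each library left out, and other distances, overlaps and q limits for peaks.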

Additional observations from a re-analysis of the deposited data

How the results depend on the processing

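The median member log2 fold change stayed between -0.93 and -0.51 under every alternative run, and Hira stayed between 0.29 and 0.53. The number of members called lower, 3, was 21 with DESeq2 (1498 genes called in all, against 292), 33 with no low-count filter (3.42% of all genes called lower), 5 with a stricter one (1.20%), and 1 or 0 with limma on log2(TPM + 1) or log2(TPM + 0.1) (1.54% and 0.563%). The 1 call by limma was Cdca3, none of the 3. With no filter the median of all genes also shifted to 0.13. Each library left out in turn gave 0 to 39 called members, against 0.00567% to 10.8% of all genes. With a library left out, Cenpa ranged from -0.57 to 0.0741 (above 0 without labelled Hira KO replicate 1) and Nusap1 from -0.65 to 0.000128 (above 0 without labelled Hira KO replicate 2). The cause of these changes of sign was not tested. With the replicate block, 4 members were called, Cdca8 added (-1.18, edgeR adjusted p = 0.0347), at a median of -0.69, with 1.04% of all genes called lower and 537 called in all. Deviations of same-numbered libraries had a correlation of 0.0646 across genes, while the mitochondrial share followed the number in both groups. The labels give no shared source for a number, so it was not taken as a pairing. Members lower without overlap numbered 46 to 49 with each library left out, where 36.6% to 42.2% of all genes were, and 37 on TPM (19.5%). With 3 libraries such separation is easier to reach, so these counts say nothing of stability. Members with a region in 1 labelled pair only, 19 within 10 kb, were 10 within 2 kb (20.4% against 26.2% of all genes), 34 within 50 kb (69.4% against 59.97%) and 9 at a -log10 q of at least 10 (18.4% against 22.3%). Within 2 kb and at the stricter q the members' pooled share was thus below that of all genes, unlike the 38.8% against 35.4% within 10 kb. By direction, regions of the labelled WT pair alone lay near 20.4% and 14.3% of members, against 12.1% and 9.15% of all genes. For the labelled Hira KO pair alone the shares were 0% and 4.08%, against 16.7% and 14.8%. With each list left out, a pair is then a single list. Members with a region in 1 labelled pair only then numbered 23 to 34, at 46.9% to 69.4% of members against 50.3% to 64.4% of all genes. Their share was below that of all genes without labelled WT replicate 1.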

Other observations

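Beyond the members, CHR matches centred within 60 bases of the start were found for 10 of 33 other kinetochore genes with a window (30.3%), 9 of 22 other spindle and centrosome genes (40.9%) and 7 of 17 other G2 and mitosis genes (41.2%). They were found for 3 of 39 S-phase genes (7.69%) and 0 of 14 subunits of the anaphase-promoting complex. The S-phase genes had nearly the median log2 fold change of those mitotic lists, -0.52, with few such matches.

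Among members with a window, the 28 with a CHR near the start had a median log2 fold change of -0.64 and the 12 without it -0.73. Among other tested genes, the 457 with such a match had a median of -0.08 and the 10305 without it -0.03. With a CCAAT box as well, 242 other genes had a median of -0.13. These medians describe genes of the same 4 libraries and were not tested against each other.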
